A study of Caenorhabditis elegans with 12 samples.

Results

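Histones are the proteins that package DNA. The histone genes of the nematode Caenorhabditis elegans were taken as all probe sets whose platform gene symbols are all of the form his, hil or htz followed by a number, with sets shared by several histone genes kept. This gave 64 of the 22548 probe sets that are not array controls, and 61 of these passed a filter on low signal (on at least 3 arrays a signal above that array's 40th percentile), among 14709 probe sets in all. The 64 sets name 81 genes, which are all 81 genes with such a symbol in RefSeq's gene list for assembly WBcel235. A probe set is a group of short probes on the array that together give 1 signal, and 41 of the 64 sets name 1 gene while 23 name several, up to 14. The suffix _x_at, by which Affymetrix marks sets whose probes may also bind other sequences, is carried by 41 sets. Most histone copies of a class can therefore share signal, and the sets are not independent measurements.

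The arrays measured RNA from whole L1 larvae, the first larval stage, in 4 groups of 3 arrays. These were manf-1(tm3603) mutants with tunicamycin, manf-1(tm3603) mutants with vehicle, wild type (strain N2) with tunicamycin, and wild type with vehicle, the vehicle being DMSO, the solvent. Eggs had hatched on plates without bacteria, larvae were collected 24 h after plating, and the treatment lasted 5 h; the labels give the tunicamycin concentration as the number 5 but disagree on its unit, per mL or per uL. The labels do not say whether the 3 arrays of a group are separate cultures, so a p-value covers array-to-array spread, which may be technical, and the number of arrays limits precision. Tunicamycin blocks the attachment of N-linked sugars to proteins in the endoplasmic reticulum, and manf-1 encodes the worm form of MANF, a small protein of that compartment which is also secreted. The mutants carry 1 allele throughout the animal, so no cell type is singled out.

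A nucleosome holds DNA wound around a core of histones H2A, H2B, H3 and H4, and linker histone H1 binds where the DNA enters and leaves it. Most core histone genes are present in many near-identical copies that lie in clusters, are transcribed mainly while DNA is copied, and give mRNAs that end in a stem-loop instead of a poly(A) tail. Variant histones such as H2A.Z and H3.3 are made outside that phase as well. Larvae that hatch without food arrest before the cell divisions of the first larval stage begin.

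By class, the kept sets were 9 for H2A, 9 for H2B, 10 for H3, 12 for H4, 5 for H3 variants, 2 for H2A.Z, 12 for linker histones and 2 for his-39 and his-73, to which no class was given. The RefSeq table places most core histone genes beside each other, as in the run his-8, his-7, his-6, his-5 and his-39, the 8-gene run that holds his-17 to his-22, his-27 and his-28, and a 13-gene run that includes his-9 to his-16. The 3 sets that did not pass the filter were that shared by his-40 and his-17 (H3), and those of hil-8 and his-70. The standard labelling protocol for these arrays starts from poly(A) tails. The labels do not name the primer, and how fully stem-loop mRNAs were captured was not tested. In whole animals, fewer cells of a type and less RNA per cell cannot be told apart.

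The treatment labels were checked with hsp-4 and hsp-3, the worm forms of the chaperone BiP, which increase when unfolded proteins build up. With tunicamycin hsp-4 rose by 3.57 (log2; SE 0.30, adjusted p = 3.34e-05) in mutants and by 3.22 (SE 0.30, adjusted p = 0.000142) in wild type, and hsp-3 by 2.06 and 1.81 in the same order (limma). The annotation names no set for manf-1, and the genotype labels were not checked here. The 4 arrays numbered 2 stood apart in 5 pairs of the platform's control sets for the 3′ and 5′ ends of a sequence: the mean 3′ minus 5′ difference was -0.32 to -0.20 (log2) on them and 0.03 to 0.39 on the other 8. They did not separate fully in the control sets for actin, catalase, Gapdh, gly14 and ubiquitin. There the difference was 0.69 to 1.26 on them and 1.23 to 1.85 on the other 8. Results that turn on these arrays are therefore also given without them, an alternative added after seeing the data.

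In manf-1 mutants the histone sets lay lower with tunicamycin than with vehicle, and the core classes did so nearly as a whole, but no single set passed the test. The log2 change was below 0 in 54 of 61 histone sets, against 51.5% of all probe sets tested, with a median of -0.40 over the histone sets and -0.02 over all. Among core sets 39 of 40 were below 0, with a median of -0.45 and a range of -1.35 to 0.03. By limma with Benjamini-Hochberg adjustment over all 14709 sets, 0 of 61 histone sets reached an adjusted p under 0.05, against 1.07% of all sets. At an unadjusted p under 0.05, 11 histone sets were lower, against 4.64% of all sets, and 0 were higher, against 4.24%. All 3 tunicamycin arrays lay below all 3 vehicle arrays in 14 histone sets, against 8.53% of all sets, and the opposite order occurred in 0, against 7.55%. The 14 sets and the 54 below 0 include his-73, which passed the filter through vehicle arrays alone, so the filter favours its place in these counts.

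In wild type the histone sets showed no common direction with tunicamycin. Of 61 sets, 28 were below 0, against 52.4% of all sets, and the median log2 change was 0.02, against -0.03 over all. The core sets were mostly above 0, with 12 of 40 below and a median of 0.11, and 2 of 40 were below without the arrays numbered 2. The count turned on single arrays too, with 3 of 40 below 0 when wild-type tunicamycin array 2 was left out, 20 without wild-type vehicle array 1 and 18 without wild-type tunicamycin array 3. By limma 0 of 61 sets reached an adjusted p under 0.05, against 0.394% of all, and 4 reached an unadjusted p under 0.05, against 8.02%. The groups did not overlap in 4 sets that were higher with tunicamycin, against 5.43% of all sets, and in 5 that were lower, against 5.44%. The set of his-73, favoured by the filter, is among these 5, the 28 below 0 and the 4 with an unadjusted p under 0.05.

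**Figure D1:**
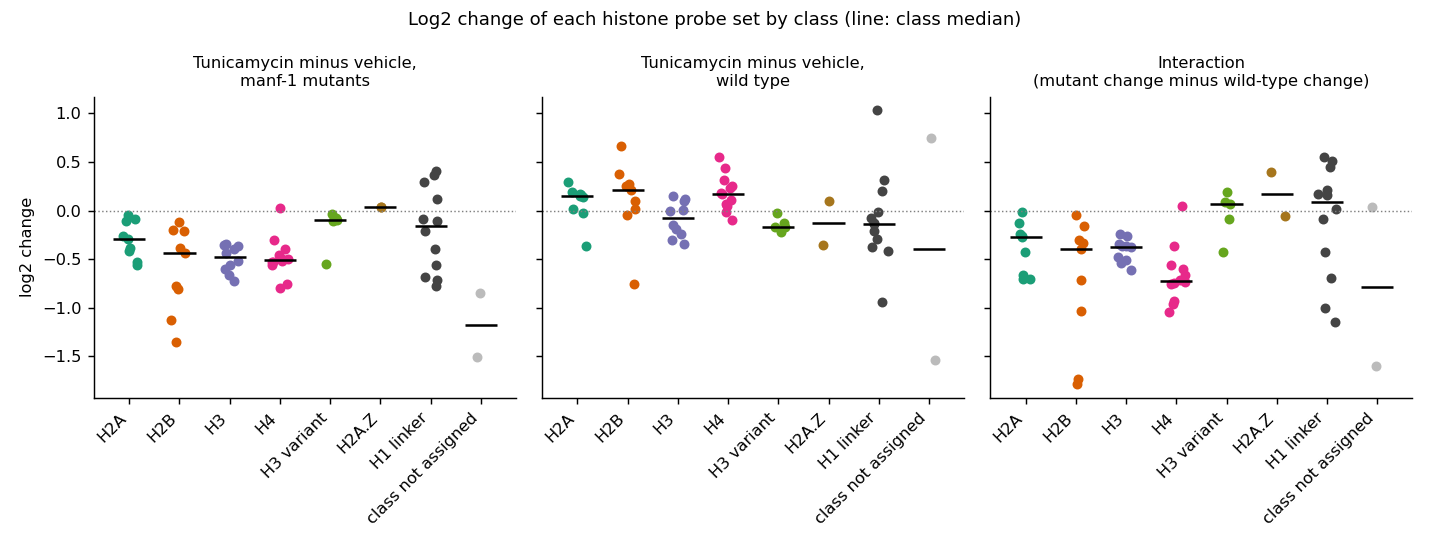
Log2 change (vertical axis) of each kept histone probe set by class, for tunicamycin minus vehicle in manf-1 mutants, the same in wild type, and the difference between these changes; each point is 1 set and the line is the class median. The H2A, H2B, H3 and H4 sets lie below 0 in mutants in 39 of 40 cases. The H1 linker sets lie on both sides, those above 0 in mutants being the sets of hil-7 and hil-1.

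The difference between the genotypes was tested directly as an interaction, the tunicamycin change in mutants minus that in wild type. It was below 0 in 48 of 61 histone sets, against 49.8% of all sets, with a median of -0.36, against 0.00 over all. In the core classes it was below 0 in 39 of 40 sets, with a median of -0.49. By limma 0 of 61 sets reached an adjusted p under 0.05, against 0.0068% of all, and the lowest adjusted p was 0.846. At an unadjusted p under 0.05, 11 sets were lower, against 2.52% of all sets, and 0 were higher, against 2.09%. Without the 4 arrays numbered 2 the interaction was below 0 in 54 of 61 sets and 40 of 40 core sets, the median over all 61 was -0.79, and again 0 passed. In the 20 kept sets without the _x_at suffix the interaction was closer to 0, with a median of -0.07, and the 7 core sets among them had 6 below 0 in mutants, 4 in wild type and 6 in the interaction, with an interaction median of -0.30.

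A set could be above 0 in wild type and below 0 in mutants, and 31 of 61 histone sets were, against 21.3% of all sets. The share was 28 of 40 in the core classes, made up of 7 of 9 H2A sets, 7 of 9 H2B sets, 4 of 10 H3 sets and 10 of 12 H4 sets. It was 2 of 12 linker sets and 0 of 5 H3 variant sets. By annotation it was 18 of the 22 kept sets that name several genes, which can share signal, and 13 of the 39 that name 1 gene. In wild type 4 of these 22 sets and 24 of these 39 were below 0, and in mutants 22 and 32. Over all kept histone sets the share above 0 in wild type and below 0 in mutants also turned on single arrays. Without the arrays numbered 2 it was 47 of 61 histone sets and 38 of 40 core sets, and over the leave-one-out fits it was 20 to 36 core sets. The count of 0 of 5 for H3 variants turned on the arrays numbered 2 as well. Without them, the sets of his-69, his-71 and his-72 were above 0 in wild type and below 0 in mutants.

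**Figure D2:**
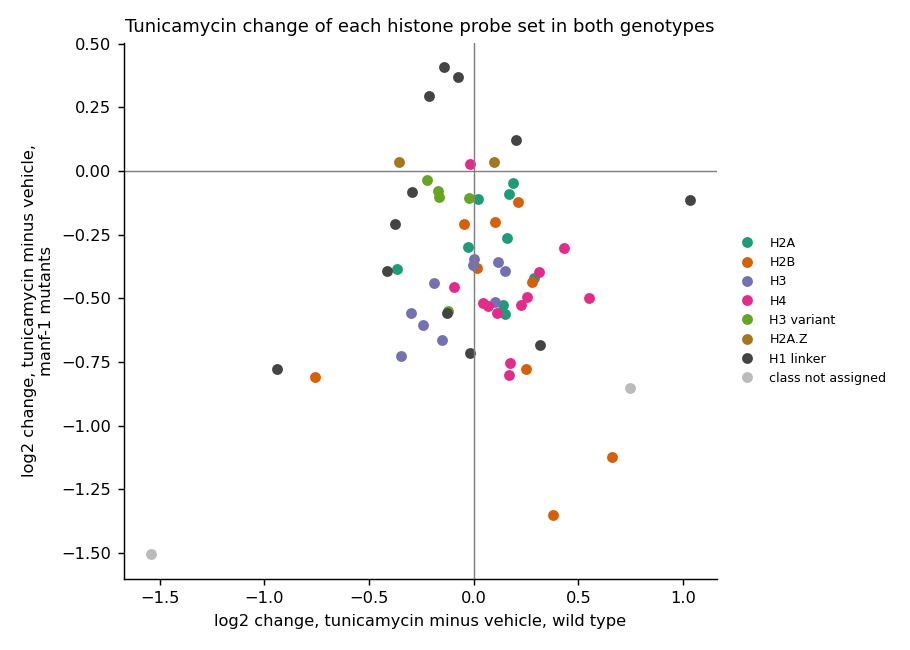
Log2 change with tunicamycin in wild type (horizontal axis) and in manf-1 mutants (vertical axis) of each of the 61 kept histone probe sets, coloured by class, with lines at 0. The lower right quadrant holds 31 sets, 28 of them core sets, and 7 sets lie above 0 in mutants.

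Histone H4, which pairs with H3 at the centre of the nucleosome, had the widest gap between the genotypes of the 4 core classes: its median change was -0.51 in mutants and 0.17 in wild type. The set shared by his-64, his-56 and his-46 (172679_x_at) had log2 signals of 11.14, 11.59 and 11.31 in mutants with tunicamycin, against 12.04, 11.83 and 11.65 in mutants with vehicle. Wild type had 12.02, 11.84 and 11.75 with tunicamycin, against 11.34, 11.05 and 11.57 with vehicle. The treated arrays were thus all below the vehicle arrays in mutants and all above them in wild type. The fitted changes were -0.50 in mutants and 0.55 in wild type (SE 0.18 each, adjusted p = 0.33 and 0.384), and the interaction was -1.05 (SE 0.25, adjusted p = 0.846; limma). This interaction lay between -1.17 and -0.91 over all alternatives, and the set had the smallest unadjusted p of the histone sets in that contrast.

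The set named for his-64 alone (172787_x_at) had the lowest adjusted p of any histone set in mutants. It had log2 signals of 10.37, 10.73 and 10.54 in mutants with tunicamycin, against 11.49, 11.33 and 11.08 with vehicle. Wild type had 11.13, 10.80 and 11 with tunicamycin, against 10.58, 10.78 and 11.04 with vehicle. The mutant groups did not overlap and the wild-type groups did. The mutant change was -0.75 (SE 0.19, 1.69-fold lower, adjusted p = 0.0815), the wild-type change was 0.18 (SE 0.19, adjusted p = 0.882) and the interaction -0.93 (SE 0.26, adjusted p = 0.995; limma). Over the alternatives its adjusted p in mutants lay between 0.0508 and 0.351.

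Another H4 copy, his-31 (172661_x_at), also separated the mutant groups. It had 9.07, 9.41 and 9.22 (log2 signal) in mutants with tunicamycin, against 10.29, 9.97 and 9.85 with vehicle, with no overlap. In wild type it had 9.75, 9.60 and 9.83 with tunicamycin, against 9.49, 9.27 and 9.92 with vehicle, which overlap. The mutant change was -0.80 (SE 0.23, adjusted p = 0.157) and the interaction -0.97 (SE 0.32, adjusted p = 0.995; limma). Not every H4 set did so, since his-37 (188708_at) was at 0.03 in mutants and -0.02 in wild type (SE 0.21 each). The other 8 H4 sets were all below 0 in mutants, and the 2 H4 sets below 0 in wild type were his-37 and his-67.

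Histone H2B, which forms a dimer with H2A, held the single sets with the largest changes of the core classes. Its median in mutants was -0.44, against -0.51 for H4, -0.48 for H3 and -0.30 for H2A. Both sets shared by his-20, his-8, his-54, his-22 and his-52 were low in treated mutants. The first (172874_x_at) had 6.01, 7.02 and 7 (log2 signal) in mutants with tunicamycin, against 8.69, 7.97 and 7.42 with vehicle. Wild-type arrays had 7.91, 7.77 and 8.53 with tunicamycin, against 6.91, 8.23 and 7.94 with vehicle. Mutant groups did not overlap, and wild-type vehicle array 1 was the lowest of the wild-type arrays. The changes were -1.35 (SE 0.44, 2.55-fold lower, adjusted p = 0.258) in mutants and 0.38 (SE 0.44, adjusted p = 0.895) in wild type, with an interaction of -1.73 (SE 0.62, adjusted p = 0.995; limma).

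The second set of the same 5 genes (172685_x_at) had 6.56, 7.56 and 7.32 (log2 signal) in mutants with tunicamycin, against 8.98, 8.27 and 7.57 with vehicle. Its highest treated mutant array lay barely below its lowest vehicle array. The wild-type values were 8.47, 8.05 and 8.79 with tunicamycin, against 7.01, 8.09 and 8.23 with vehicle. Its changes were -1.13 in mutants and 0.66 in wild type (SE 0.43 each), and its interaction of -1.79 (SE 0.61) was the largest in size of the 61 sets. The H2B set of his-44, his-11 and his-15 (192280_s_at) differed from these, at -0.81 in mutants and -0.76 in wild type (SE 0.45 each). In this set all treated wild-type arrays, at 7.07, 6.75 and 7.44, lay below the vehicle arrays, at 7.65, 8.04 and 7.85. The other 6 H2B sets lay between -0.78 and -0.12 in mutants.

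**Figure D3:**
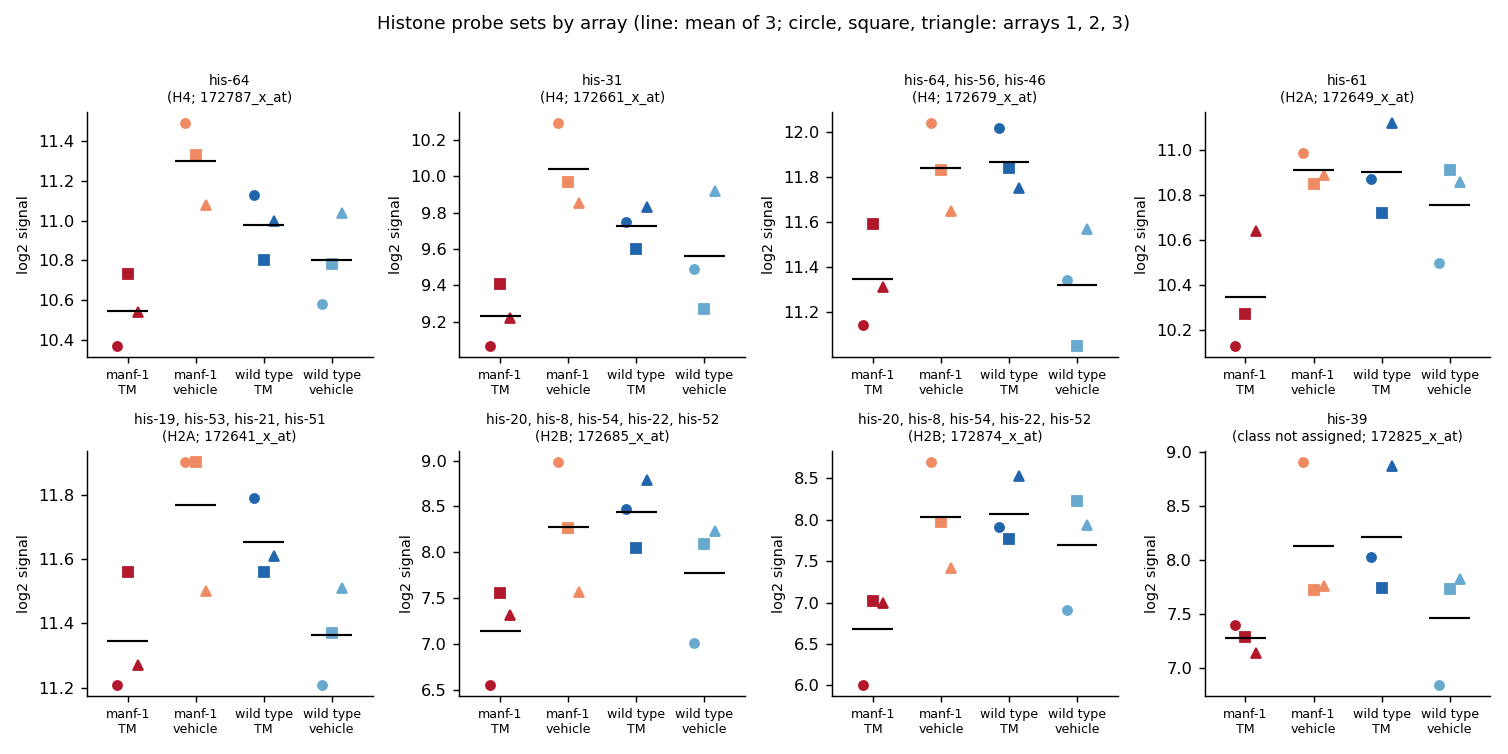
Log2 signal (vertical axis) on each array for 8 histone probe sets, each panel with manf-1 mutants with tunicamycin (TM) and vehicle, then wild type with tunicamycin and vehicle; circles, squares and triangles are arrays 1, 2 and 3 and the line is the group mean. In 7 of the 8 panels the treated mutant arrays lie below all vehicle arrays of the mutants, the exception being the H2A set of his-19, his-53, his-21 and his-51.

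Histone H2A sets were all 9 below 0 in mutants, with a median of -0.30, and 7 of 9 above 0 in wild type, with a median of 0.15. The set of his-61 (172649_x_at), 1 H2A copy, had 10.13, 10.27 and 10.64 (log2 signal) in mutants with tunicamycin, against 10.99, 10.85 and 10.89 with vehicle. Its wild-type values were 10.87, 10.72 and 11.12 with tunicamycin, against 10.50, 10.91 and 10.86 with vehicle. The treated mutant arrays lay below all vehicle arrays of the mutants and all treated wild-type arrays, and wild-type vehicle array 1 lay within their range. The mutant change was -0.56 (SE 0.19, adjusted p = 0.294; limma).

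The H2A set of his-19, his-53, his-21 and his-51 (172641_x_at) had 11.21, 11.56 and 11.27 (log2 signal) in mutants with tunicamycin, against 11.90, 11.90 and 11.50 with vehicle, so the groups overlapped through array 2 of the treated mutants. Its wild-type signals were 11.79, 11.56 and 11.61 with tunicamycin, against 11.21, 11.37 and 11.51 with vehicle, with every treated array higher. Its interaction was -0.71 (SE 0.23, adjusted p = 0.995; limma). These 4 genes stand in the same runs of neighbours as his-20, his-22, his-52 and his-54 of the H2B sets above. The H2A gene his-35 (190805_at) stood apart from the class pattern, at -0.39 in mutants and -0.37 in wild type (SE 0.21 each), and its change averaged over genotypes was -0.38 (adjusted p = 0.317; limma).

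Histone H3 sets were all 10 below 0 in mutants, between -0.73 and -0.34 with a median of -0.48, and had a median of -0.08 in wild type. The set that names 14 genes (172871_x_at) had the lowest value, with 8.06, 8.20 and 7.59 (log2 signal) in mutants with tunicamycin, against 9.13, 8.69 and 8.21 with vehicle. These groups barely separate, and the change was -0.73 (SE 0.38, adjusted p = 0.637; limma). In wild type it had 8.43, 7.14 and 8.54 with tunicamycin, against 8.32, 8.50 and 8.35 with vehicle, where array 2 with tunicamycin was the lowest. The interaction of the H3 sets ran from -0.61 to -0.25, and 0 of 10 reached an unadjusted p under 0.05 in either direction, against 4.62% of all sets.

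**Figure D4:**
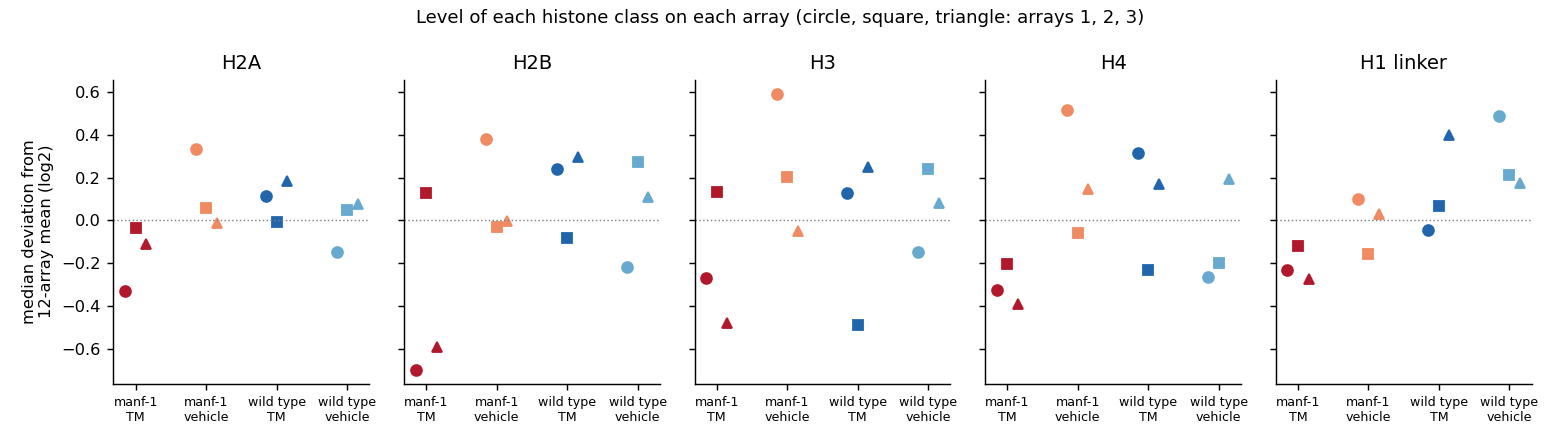
Median over the kept probe sets of a class of the deviation from each set's mean over 12 arrays (log2, vertical axis), 1 point for each array, for H2A, H2B, H3, H4 and linker H1; groups run from mutants with tunicamycin to wild type with vehicle. For H4 the treated mutant arrays lie at -0.39 to -0.20, below the 3 vehicle arrays of the mutants at -0.06 to 0.52, and for H2B treated mutant array 2 lies at 0.13.

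Over all core sets the median deviation of an array from the 12-array mean was -0.38, 0.00 and -0.36 in mutants with tunicamycin, against 0.45, 0.05 and 0.03 with vehicle. In wild type it was 0.16, -0.19 and 0.23 with tunicamycin, against -0.20, 0.07 and 0.09 with vehicle. Mutant arrays did not overlap and wild-type arrays did. In both genotypes tunicamycin array 2 was apart from arrays 1 and 3 of its group. Left out alone, mutant vehicle array 1 brought the count of core sets below 0 in mutants to 36 of 40, which was the lowest over the leave-one-out fits.

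The variant histones had medians near 0 in both genotypes. The 5 kept sets of H3 variants, which replace H3 outside DNA copying, were below 0 in both genotypes, with medians of -0.10 in mutants and -0.17 in wild type. Without the arrays numbered 2, the wild-type changes were above 0 for his-69 (0.16), his-71 (0.29) and his-72 (0.27 and 0.19). The brighter set of his-72 (172863_x_at), an H3.3 gene, had 9.50, 9.59 and 9.47 (log2 signal) in mutants with tunicamycin, against 9.71, 9.37 and 9.78 with vehicle. Wild-type arrays had 9.74, 9 and 9.33 with tunicamycin, against 9.09, 9.88 and 9.59 with vehicle. All groups overlapped, and the changes were -0.10 and -0.17 (SE 0.26 each).

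The second set of his-72 was at -0.11 in mutants and -0.02 in wild type. Another H3.3 gene, his-71 (188999_s_at), was at -0.55 in mutants and -0.12 in wild type (SE 0.35 each), and his-69 and his-74 lay between -0.22 and -0.03 in both genotypes. The brighter set of htz-1 (189914_s_at), the H2A.Z gene, was at 0.04 in mutants and -0.36 in wild type (SE 0.41 each). Its vehicle arrays spread widely, at 7.61, 7.30 and 8.53 in mutants and 7.46, 9.03 and 8.48 in wild type. The second set of htz-1 (171937_x_at), near the filter value, was at 0.04 and 0.10 (SE 0.27 each).

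Linker histone sets lay on both sides of 0 in each genotype, with more below than above. Of 12 kept sets, 8 were below 0 in mutants with tunicamycin and 9 in wild type, with medians of -0.16 and -0.13, and the interaction had a median of 0.09. The 4 sets above 0 in mutants were that of hil-1 and those of hil-7, which all measure the same gene. The linker histone hil-5 (188740_at) had 4.37, 4.99 and 5.13 (log2 signal) in mutants with tunicamycin, against 4.88, 3.95 and 6 with vehicle, and these groups overlapped. The wild-type values were 5.93, 5.79 and 6.43 with tunicamycin, against 5.13, 4.71 and 5.22 with vehicle, with no overlap. Its changes were -0.11 in mutants and 1.03 in wild type (adjusted p = 0.98 and 0.621, SE 0.47 each), with an interaction of -1.14 (SE 0.67, adjusted p = 0.995; limma).

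A set of hil-3 (188654_at), another linker histone, had lower means with tunicamycin in both genotypes. It had 5.87, 7.36 and 7.64 (log2 signal) in mutants with tunicamycin, against 7.88, 7.93 and 7.40 with vehicle. Its wild-type signals were 7.75, 7.35 and 7.68 with tunicamycin, against 9.11, 8.49 and 8 with vehicle. Mutant groups overlapped and wild-type groups did not. The changes were -0.78 in mutants and -0.94 in wild type (adjusted p = 0.687 and 0.622, SE 0.44 each; limma). The second hil-3 set (171805_x_at) was at -0.39 in mutants and -0.41 in wild type, and its wild-type value became 0.10 without tunicamycin array 2, which stood at 6.73 beside 8.10 and 8.41.

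A pair of sets measured his-24, a further linker histone. The brighter one (190225_s_at) was at -0.71 in mutants and -0.02 in wild type (SE 0.39 each), and the dimmer one (175662_at) at -0.56 and -0.13. The linker gene hil-2 (177209_at) had 6.59, 6.78 and 5.96 (log2 signal) in mutants with tunicamycin, against 7.24, 7.21 and 6.92 with vehicle, without overlap, and its change of -0.68 had an adjusted p of 0.697 (SE 0.39; limma). In wild type hil-2 was at 0.32 and its groups overlapped. The single sets of the linker genes hil-1, hil-4 and hil-6 lay between -0.21 and 0.12 in mutants and between -0.37 and 0.20 in wild type. The 3 sets of hil-7, also a linker gene, had the highest mutant changes of the 61 histone sets, at 0.29, 0.41 and 0.37, against -0.21, -0.14 and -0.08 in wild type (SE 0.29 to 0.31). Without the arrays numbered 2 the last of these sets (172675_x_at) was at -0.025 in mutants. Over all alternatives the lowest mutant changes of 171921_x_at and 172045_x_at were 0.04 and 0.06. In all 3 sets mutant vehicle array 2 was the lowest of its group, at 8.39, 8.41 and 8.68 (log2 signal).

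**Figure D5:**
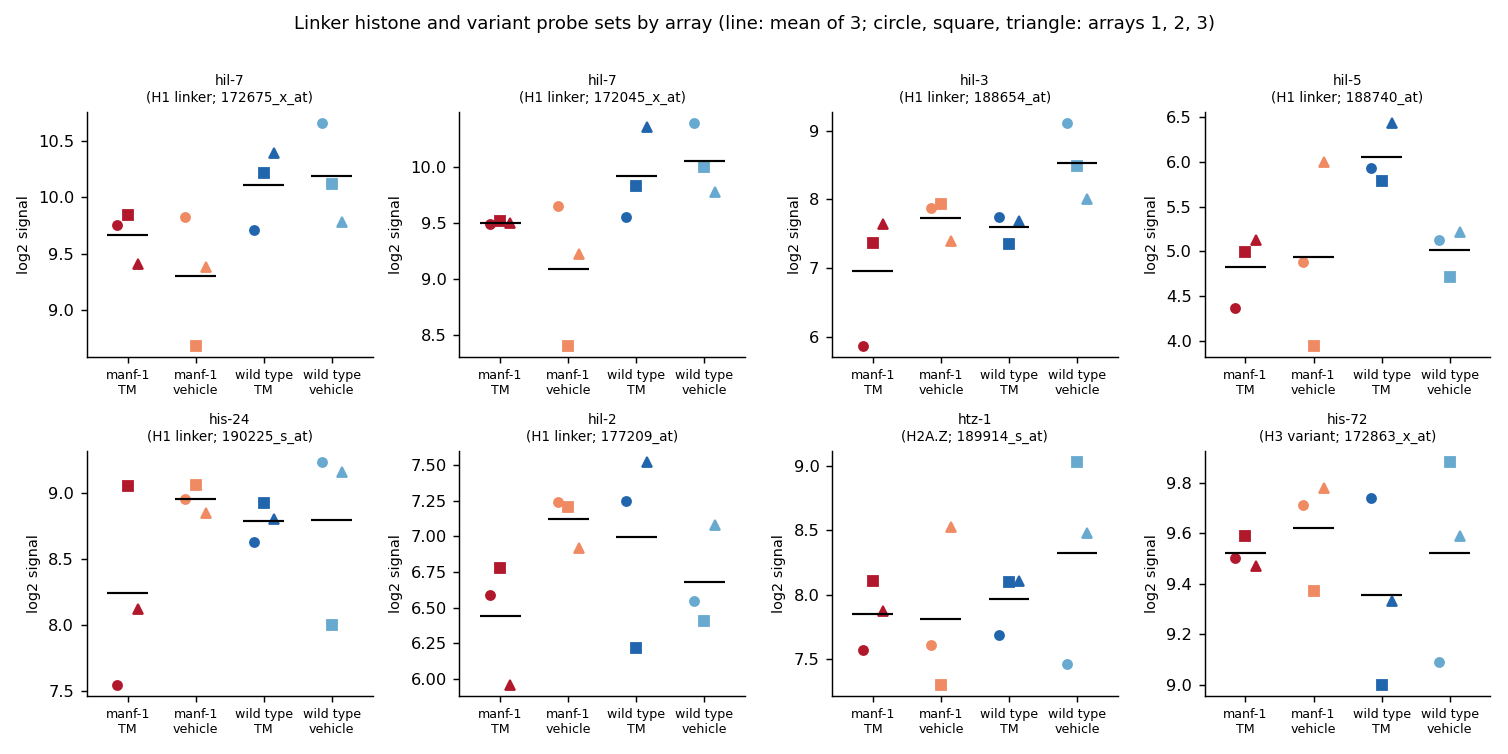
Log2 signal (vertical axis) on each array for 8 linker and variant histone probe sets, with groups and symbols as labelled (TM is tunicamycin, the line is the group mean). With vehicle the group means of the 2 hil-7 sets drawn (of 3 kept) lie lower in mutants than in wild type, and the hil-5 set is higher in wild type with tunicamycin than in the 3 arrays of wild type with vehicle.

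The genes his-39 and his-73 were given no class. The set of his-39 (172825_x_at), which neighbours his-5 to his-8, had 7.40, 7.29 and 7.14 (log2 signal) in mutants with tunicamycin, against 8.90, 7.72 and 7.76 with vehicle, with no overlap. In wild type it had 8.03, 7.74 and 8.87 with tunicamycin, against 6.85, 7.73 and 7.82 with vehicle. The changes were -0.85 and 0.75 (SE 0.41 each) and the interaction -1.60 (SE 0.58, adjusted p = 0.995; limma). The set of his-73 (192264_at) was dim and passed the filter through vehicle arrays alone, so its values of -1.51 in mutants and -1.54 in wild type (SE 0.72 each) are a description that the filter itself favours. Its mutant vehicle arrays were at 2.63, 6.12 and 2.61, so the mutant value rests largely on array 2.

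Between the genotypes in vehicle, most core sets lay higher in mutants than in wild type and most linker sets lower, without a call. The log2 difference, mutant minus wild type, was below 0 in 19 of 61 histone sets, against 47.8% of all sets, with a median of 0.15, against 0.02 over all. It was below 0 in 6 of 40 core sets and in 8 of 12 linker sets, with medians of 0.22 and -0.29. These 8 include the 3 sets of hil-7 and both of hil-3, so they are not 8 separate genes. The linker sets above 0 were hil-1 at 0.49, hil-2 at 0.44 and his-24 at 0.17 and 0.16. The core count was 14 of 40 without wild-type vehicle array 1, 11 without mutant vehicle array 1, 3 without mutant vehicle array 2, 4 without wild-type vehicle array 2, and 2 without the arrays numbered 2. By limma 0 of 61 sets reached an adjusted p under 0.05, against 0.0068% of all, and 6 reached an unadjusted p under 0.05, against 5.23%. The groups did not overlap in 2 sets that were higher in mutants, both of H4 and described above, against 5.95% of all sets, and in 4 that were lower, all of linker histones, against 4.44%. Those 4 were hil-7 (171921_x_at and 172045_x_at), hil-3 (188654_at) and hil-4 (188717_at).

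The 3 sets of hil-7 were among the 4 histone sets with the smallest p in this comparison. In 172045_x_at it had 9.65, 8.41 and 9.23 (log2 signal) in mutants with vehicle, against 10.39, 10 and 9.78 in wild type with vehicle, with no overlap. The difference was -0.96 (SE 0.31, 1.95-fold lower, adjusted p = 0.888), and without mutant vehicle array 2, the lowest, it was -0.62. In the other 2 sets it was -0.91 (SE 0.29) and -0.89 (SE 0.31, adjusted p = 0.905; limma). The 3 sets measure 1 gene and are not replicates of each other. With tunicamycin the hil-7 differences were -0.41, -0.41 and -0.44, and averaged over treatments they were -0.69, -0.66 and -0.67 (lowest adjusted p = 0.696).

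With tunicamycin in both genotypes, core and linker sets lay lower in mutants than in wild type, without a call. The difference was below 0 in 56 of 61 histone sets, against 46.6% of all, with a median of -0.30, against 0.03 over all. It was below 0 in 39 of 40 core sets and 11 of 12 linker sets, with medians of -0.30 and -0.41, but in 3 of 5 H3 variant sets, with a median of -0.02. All mutant arrays lay below all wild-type arrays in 11 sets, against 5.09% of all sets, and in 0 sets above, against 5.16%. By limma 0 of 61 sets reached an adjusted p under 0.05, against 0.0408% of all, and at an unadjusted p under 0.05, 8 were lower, against 3% of all, and 0 were higher, against 2.5%. The 4 sets with the smallest p were both sets of his-20 and its 4 partners, at -1.40 and -1.29, the set of his-64, his-56 and his-46, at -0.53, and his-61, at -0.56 (adjusted p = 0.769 each; limma). Without the arrays numbered 2 the median over histone sets was -0.55, with 59 of 61 below 0. This comparison shares arrays with the tunicamycin comparisons and with the interaction, so it is not a separate line of evidence.

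Averaged over both genotypes, tunicamycin gave 0 of 61 histone sets with an adjusted p under 0.05 by limma, against 1.9% of all sets, and 5 with an unadjusted p under 0.05, against 11.2%. These 5 include his-73, whose p the filter favours, and apart from it the smallest adjusted p was 0.263, for hil-3 (188654_at). Averaged over both treatments, genotype gave 0 of 61 sets, against 0.0136% of all, and 4 with an unadjusted p under 0.05, against 5.91%. All 4 of these were linker sets, the 3 of hil-7 and hil-3 at -0.72 (adjusted p = 0.809; limma).

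Genes that supply and handle histones did not pass the test in any comparison. Of all probe sets 0.0068% to 1.9% passed, by comparison, so a count of 0 in lists this short says little about these genes. Among 16 kept genes of histone supply and deposition (chaperones and mRNA processing), 6 were below 0 in mutants with tunicamycin and 8 in wild type, with medians of 0.06 and -0.04. The lowest p in mutants was that of cdl-1, the protein that binds the stem-loop of histone mRNAs, at -1.25 (SE 0.48, adjusted p = 0.384; limma). Of 35 kept genes of DNA replication, 19 were below 0 in mutants and 19 in wild type, with medians of -0.05 in each. The gene cdc-6, which loads the replicative helicase, was at 1.12 in mutants (SE 0.32, adjusted p = 0.157), and rpa-2, a subunit of the protein that coats single-stranded DNA, at 1.31 in wild type (SE 0.40, adjusted p = 0.342; limma). The cdc-6 signal was near the filter value, with mean log2 signals of 3.77 in mutants with tunicamycin and 2.65 with vehicle. In wild type they were 2.92 with tunicamycin and 3.33 with vehicle. How far the filter favoured the cdc-6 value was not tested. The 26 kept cell cycle genes had medians of -0.20 in mutants and -0.04 in wild type, with 0 passing, and dpl-1, partner of E2F, had the lowest p in mutants, at -1.28 (adjusted p = 0.591; limma). The 31 kept genes that modify or read histones had medians of 0.14 and 0.24, with 21 above 0 and 10 below in mutants. The acetyltransferase gene mys-2 had the lowest p of this list in mutants, at -1.21 (adjusted p = 0.381; limma).

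Among the tissue marker lists, those of hypodermis and intestine had the lowest medians with tunicamycin in both genotypes. In mutants with tunicamycin 13 of 14 kept hypodermis markers were below 0 (median -0.59), and in wild type 12 of 14 (median -0.44). Their median deviation per array was -0.64 to -0.28 in mutants with tunicamycin, against -0.06 to 0.49 with vehicle, and -0.30 to 0.09 in wild type with tunicamycin, against 0.12 to 0.84 with vehicle. For 12 intestine markers 8 were below 0 in mutants (median -0.79) and 10 in wild type (median -0.28), with arrays at -0.45 to -0.34 in mutants with tunicamycin, against 0.11 to 0.44 with vehicle, and at -0.19 to 0.08 in wild type with tunicamycin, against 0.10 to 0.45 with vehicle. Both lists thus had medians below 0 with tunicamycin in both genotypes, and their relation to the histone values was not tested. Neither list had a member past the threshold in either genotype, against 1.07% of all sets in mutants and 0.394% in wild type. The lowest adjusted p in mutants was 0.112 for the cuticle collagen gene sqt-3 and 0.123 for spp-1 (limma). Averaged over genotypes, the intestinal genes asp-1 and lys-1 fell by 1.1 and 1.18 (adjusted p = 0.0116 and 0.0357) and the muscle gene tni-1 by 0.63 (adjusted p = 0.0412; limma).

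The other marker lists also had no member past the threshold in either genotype, against 1.07% of all sets in mutants and 0.394% in wild type. Medians in mutants and in wild type were 0.29 and -0.12 for 9 kept germline markers, -0.07 and -0.15 for 9 kept embryo markers, -0.15 and -0.23 for 14 neuron markers, and 0.03 and -0.19 for 10 body wall muscle markers. The part of any tissue list in the histone values was not tested.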

How the data were processed

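Per the labels' protocols, Trizol was used to extract total RNA of whole larvae, and 6 ug of it was turned into biotin-labelled cRNA for 12 Affymetrix arrays. The authors deposited log2 signals; the submitters' processing notes name MAS5 without role or version, the normalization method is not given in the sources used here, and a method that compresses dim signals would shrink their changes. No further normalization was applied. Arrays had medians of 3.96 to 4.05.

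The 77 control sets were left out, and limma 3.58.1 in R 4.3.3 (lmFit, eBayes with a trend, 8 residual degrees of freedom) fitted 4 group means to 14709 kept sets. The 7 contrasts were two-sided, with Benjamini-Hochberg adjustment over all kept sets and a threshold of 0.05. Errors are limma's SE.

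The members and the 10 gene lists were chosen with earlier results of these data known. Genes were named by a rule: the 4 histone sets with the smallest p per contrast, all linker and variant sets, and, from the lists described, members that passed or had the smallest p; his-35, his-37, his-39, his-67, the 14-gene H3 set and the second H2B set were added after their values were seen where that rule does not name them. Gene class came from textbook names checked against gene lengths, since the planned protein table was not used here; 79 of 81 gene numbers gave the same symbol in RefSeq. Same-numbered arrays were not paired: 7 of 18 pairs had deviations correlated above 0.1. Alternatives were an offset, other filters and fits, a replicate block, leaving out arrays, and subsets of members. The fit was tested on simulated data.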

Additional observations from a re-analysis of the deposited data

How the results depend on the processing

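No histone set reached an adjusted p under 0.05 by limma in any of the 7 comparisons under any of 25 settings, and the lowest adjusted p was 0.0508. Of 1973 values for 91 results in single sets, 63 in 25 results lay on the other side of 0 from the value reported, and 66 results kept their direction throughout. In 60 of the 63 the reported value was within 1 SE of 0, and all 25 results are tunicamycin changes within 1 genotype. Only for those changes did the results followed include every linker and variant set. The other comparisons followed mainly sets with the smallest p, so the lack of crossings there says little about their stability. Without the 4 arrays numbered 2, an alternative chosen after seeing the data, the mutant changes on the other side were -0.011 for hil-1, -0.025 for hil-7 (172675_x_at), -0.018 for his-37, 0.034 for his-74, -0.074 for htz-1 (171937_x_at) and -0.35 for htz-1 (189914_s_at). In wild type they were 0.13 for hil-3 (171805_x_at), 0.16 for the 14-gene H3 set, 0.16 for his-37, 0.45 for his-67, 0.16 for his-69, 0.29 for his-71, 0.27 and 0.19 for his-72 (171960_x_at and 172863_x_at) and -0.08 for htz-1 (171937_x_at). With quantile normalization they were 0.006 for his-69 in mutants, and 0.041 for his-24 (190225_s_at) and 0.016 for his-37 in wild type. Leaving out each array in turn, mutant changes that crossed 0 ranged from -0.28 to 0.43 for hil-1, -0.61 to 0.41 for hil-5, -0.33 to 0.005 for hil-6, -0.18 to 0.19 for his-37, -0.19 to 0.073 for his-69, -0.24 to 0.074 for his-72 (171960_x_at), -0.16 to 0.059 for his-74, -0.074 to 0.11 for htz-1 (171937_x_at) and -0.22 to 0.40 for htz-1 (189914_s_at). Wild-type changes that crossed 0 ranged from -0.12 to 0.46 for hil-1, -0.75 to 0.10 for hil-3 (171805_x_at), -0.36 to 0.037 and -0.28 to 0.16 for hil-7 (172045_x_at and 172675_x_at), -0.012 to 0.65 for the H2B set 172874_x_at, -0.34 to 0.20 and -0.41 to 0.20 for his-24 (175662_at and 190225_s_at), -0.60 to 0.10 for the 14-gene H3 set, and -0.11 to 0.13 for his-37. They also ranged from -0.72 to 0.64 for his-67, -0.40 to 0.027 for his-69, -0.40 to 0.24 for his-71, -0.14 to 0.19 and -0.38 to 0.014 for his-72 (171960_x_at and 172863_x_at), and -0.023 to 0.24 for htz-1 (171937_x_at). The cause of these changes of side was not tested. Also without the arrays numbered 2, the median over histone sets was 0.24 for tunicamycin in wild type, -0.55 for genotype under tunicamycin and -0.79 for the interaction, and 14 of 61 sets were below 0 in wild type. With members limited to sets without the _x_at suffix, 14 of 20 kept sets were below 0 in wild type and 10 of 20 for genotype in vehicle. The medians were -0.037 for genotype in vehicle and -0.066 for the interaction. With core sets alone, 12 and 6 of 40 kept sets were below 0 in the same comparisons. Over all histone sets these shares were 45.9% and 31.1%. The share below 0 was thus larger without the suffix and smaller in core sets, and the cause was not tested. Leaving out each array in turn gave 16 to 34 histone sets below 0 in wild type and 50 to 56 in mutants.

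With the replicate number as a block (replicate block), histone medians and counts below 0 were the same, with a median of -0.40 in mutants, because the design is balanced, and probe sets past the threshold numbered 189 in mutants and 64 in wild type, 3 for genotype under tunicamycin and 2 for the interaction; 8 of 12 arrays correlated best with their own number. Over all settings, all probe sets past the threshold numbered 76 to 189 (158 as reported) for tunicamycin in mutants, 20 to 78 (58) in wild type, 141 to 313 (280) averaged over genotypes, 0 to 11 (6) for genotype under tunicamycin, 0 to 2 (1) for genotype in vehicle and for the interaction, and 0 to 3 (2) for genotype averaged over treatments. Median centring gave 9 of 40 core sets below 0 for genotype in vehicle. Dim sets, such as those of his-73 and htz-1 (171937_x_at), are limited by their signal over background, which the deposited values do not give.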

Other observations

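Across the 61 kept histone sets the tunicamycin changes in mutants and in wild type, which share no arrays, had a Pearson correlation of 0.10 and a Spearman correlation of -0.12, given as a description because many sets share genes. Over all 14709 sets the same values were 0.31 and 0.20. Within the H3 class (10 sets) they were 0.75 and 0.71, and within the H4 class (12 sets) -0.09 and 0.08. The median SD between arrays of a group was 0.28 and 0.29 over histone sets in mutants with tunicamycin and with vehicle, and 0.30 and 0.26 in wild type with tunicamycin and with vehicle. Over all sets it was 0.37 and 0.40 in mutants and 0.47 and 0.43 in wild type, with the treatments in the same order.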
